A study of Homo sapiens with 6 samples.

Results

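The subject is 33 genes of the SLC1, SLC3, SLC6, SLC7, SLC36, SLC38 and SLC43 families that code for amino acid transporters and their partner chains, chosen by gene symbol from the 58735 genes of the count and FPKM tables. All 33 symbols were found, and 22 of them carried enough counts to be tested among 14179 tested genes. RNA was sequenced from H2452, a human pleural mesothelioma cell line, in 3 sgCtrl libraries and 3 sgNF2-1 libraries. The sgCtrl cells are labelled wild type and received a scrambled guide, and the sgNF2-1 cells are labelled NF2 knockout and received a guide against NF2, which codes for the tumour suppressor merlin. Both groups carried the same lentiviral vector, in which the SFFV promoter drives Cas9 and the guide comes with an mCherry marker. Cells of both groups were sorted on mCherry and grown in RPMI-1640 with 10% serum, and they are sorted populations, not described as single clones. One guide stands for the knockout, and the study's methods describe its data in general as biological replicates. Neither the labels nor the methods say whether the RNA libraries of a group came from separate cultures, so the p-values measure the spread between these samples, part of which may be technical.

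Amino acid transporters sit in the plasma membrane or in the membranes of lysosomes, and each carries a set of related amino acids. Several of the SLC7 proteins are light chains that reach the cell surface only when joined to the heavy chain SLC3A2, and many work as exchangers that bring in one amino acid by letting another out. Carriers such as SLC1A5 and the SLC38 proteins bring in glutamine, and exchangers such as SLC7A5 bring in leucine and other large neutral amino acids. Many transporter genes are known targets of ATF4, a transcription factor made when amino acids run short, which binds a composite of C/EBP and ATF half-sites.

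Total counts ran from 14782423 to 17416463 per library. NF2 itself had 1162, 1197 and 1025 counts in sgCtrl and 692, 802 and 590 in sgNF2-1, a log2 fold change of -0.69 (SE 0.10, adjusted p = 7.9e-06). Of 11 mesothelial marker genes 8 were tested, and their summed FPKM (fragments scaled by gene length and by library depth) was 728 to 816 in sgCtrl and 619 to 755 in sgNF2-1, with MSLN and KRT18 among the higher genes, KRT19, PDPN and WT1 among the lower genes, and ITLN1 at 0. Of 7 fibroblast marker genes 4 were tested and all 4 were lower (COL1A1, COL1A2, COL3A1 and PRRX1), with a summed FPKM of 14.6 to 17.6 in sgCtrl and 1.59 to 1.86 in sgNF2-1, while DCN and LUM stood at 0. Summed FPKM was 2.88 to 3.63 against 3.36 to 3.83 for 6 epithelial markers with CDH1 at 0, 0.8 to 1.11 against 0.267 to 0.455 for 5 endothelial markers with TEK at 0, and 0.15 to 0.24 against 0.0301 to 0.0747 for 6 leukocyte markers with PTPRC at 0. The part of these shifts in the transporter results was not tested. In bulk RNA, fewer cells expressing a gene and less of its RNA per cell cannot be told apart.

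In the quasi-likelihood test of edgeR, with p-values adjusted over all tested genes and a threshold of 0.05, 8 of the 22 tested transporter genes were higher in sgNF2-1 and 4 were lower. Of all tested genes 17.7% were higher and 16.6% were lower. The transporter set was chosen with earlier results of these data known, so its counts are not independent evidence of a direction. The higher genes were SLC43A1, SLC7A5, SLC1A4, SLC7A1, SLC6A9, SLC1A5, SLC3A2 and SLC7A11, which carry large neutral amino acids, small neutral amino acids, cationic amino acids, glycine, glutamine and cystine, or join to the carriers as heavy chain. SLC43A2, SLC6A6, SLC7A8 and SLC38A2 were lower. The median log2 fold change of the 22 genes was 0.15, with a range from -1.0 to 2.33, and the median over all tested genes was 0.00.

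By an unadjusted p under 0.05 together with a log2 fold change beyond 0.5, 7 transporter genes were higher and 3 were lower, beside 9.22% and 10.8% of all tested genes. In CPM (counts scaled to a common library size), all sgNF2-1 libraries lay above all sgCtrl libraries for 9 of the 22 genes and below them for 6, beside 23.2% and 22.2% of all tested genes. In limma on log2(FPKM + 1), 21 transporter genes were tested, 8 were higher and 4 were lower, beside 13.3% and 13.4% of the genes tested on that scale. With 3 libraries a group, the exact two-sided permutation test of a single gene cannot give a p under 0.10.

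**Figure D1:**
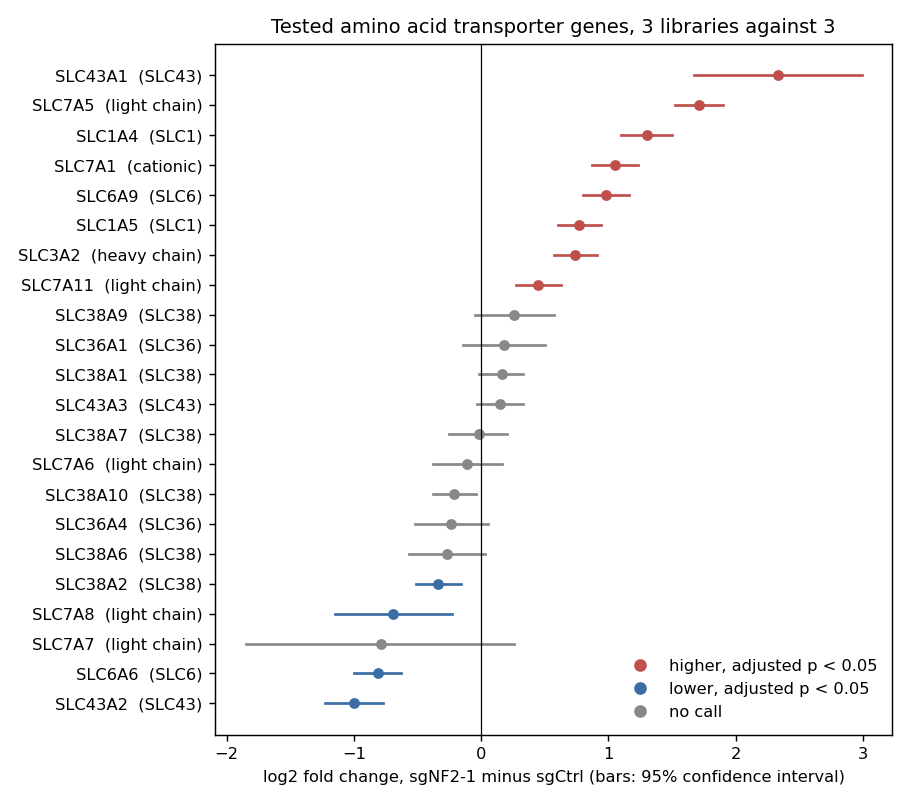
Log2 fold change (sgNF2-1 minus sgCtrl, x axis) of the 22 tested transporter genes, with the family or role in brackets, 95% confidence intervals as bars, and colours for the call at an adjusted p under 0.05. The genes run from SLC43A1 at 2.33 to SLC43A2 at -1.0, so that the highest and the lowest gene belong to the same family.

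SLC3A2 (hg38, ENSG00000168003, chr11:62856102-62888875) is the heavy chain that carries the light chains to the surface. Its counts were 6691, 6031 and 5859 in sgCtrl and 11145, 9986 and 9791 in sgNF2-1. Every sgNF2-1 library lay above every sgCtrl library. The mean rose from 393 ± 29.1 to 656 ± 28.2 CPM (SD, n = 3), a log2 fold change of 0.74 (SE 0.08, edgeR adjusted p = 1.7e-07). SLC3A1, the heavy chain known from kidney and gut, had at most 3 counts in any library, and SLC7A9, its light chain, was seen in 1 library only, with 3 counts.

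SLC7A5 (ENSG00000103257, chr16:87830023-87869488), the light chain for leucine, tryptophan and other large neutral amino acids, changed most among the light chains. It had 1665, 1687 and 1283 counts in sgCtrl and 5183, 5167 and 4706 in sgNF2-1. The groups were well apart, and the lowest sgNF2-1 library held more than 2 times the counts of the highest sgCtrl library. The mean rose 3.28-fold, from 97.7 ± 11.4 to 320 ± 22.1 CPM (SD, n = 3), with a log2 fold change of 1.71 (SE 0.09, edgeR adjusted p = 5.1e-13), which placed it at rank 74 of the 14179 tested genes from the highest change down. A pseudogene copy, SLC7A5P1, had 3, 8 and 2 counts in sgCtrl and 21, 14 and 6 in sgNF2-1, few beside those of SLC7A5, and SLC7A5P2 had 0 in each library.

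SLC7A11 (ENSG00000151012, chr4:138164097-138242349), the light chain that exchanges cystine for glutamate and so feeds glutathione synthesis, also rose. Its counts were 5050, 6020 and 5345 in sgCtrl and 8104, 8103 and 6171 in sgNF2-1. On the CPM scale the groups did not overlap, with means of 346 ± 23.7 and 473 ± 47.1 (SD, n = 3). The log2 fold change of 0.45 (SE 0.09, edgeR adjusted p = 2.8e-04) was under the 0.5 limit of the second rule.

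SLC7A8 (ENSG00000092068, chr14:23125295-23183674), the second light chain for large neutral amino acids, went the other way at a far lower level. It had 71, 93 and 74 counts in sgCtrl and 46, 55 and 45 in sgNF2-1, and the groups did not overlap. The mean fell from 5.02 ± 0.593 to 3.11 ± 0.476 CPM (SD, n = 3), with a log2 fold change of -0.69 (SE 0.22, edgeR adjusted p = 0.018). The call rested on single libraries, since the adjusted p was 0.095 without sgCtrl replicate 2 and 0.089 without sgNF2-1 replicate 1. Of the other light chains, SLC7A6 (log2 fold change -0.11, 95% interval -0.38 to 0.16) and SLC7A7 (-0.79, -1.85 to 0.26), both exchangers of cationic for neutral amino acids, did not pass the test, and SLC7A10 had at most 2 counts in a library. SLC7A6 overlaps SLC7A6OS on the opposite strand, whose mean count was 64.8% of its own, and the strand setting of the counting is not given in the sources used here, so reads of the overlapping stretch are uncertain.

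The light chains differed in how their levels stood to that of the heavy chain. FPKM, which is per length, allows levels of different genes to be set side by side, and the SLC7A5 to SLC3A2 ratio was 0.272, 0.305 and 0.239 in sgCtrl and 0.507, 0.565 and 0.525 in sgNF2-1. The ratio was thus 1.96-fold higher in sgNF2-1, with no overlap. For SLC7A11 the ratio to SLC3A2 was 0.477 ± 0.0663 in sgCtrl and 0.388 ± 0.0487 in sgNF2-1 (SD, n = 3), and the groups overlapped. The 3 less abundant tested light chains stood lower against SLC3A2 in every sgNF2-1 library than in any sgCtrl library. Their ratios went from 0.0265 ± 0.00308 to 0.0146 ± 0.00205 for SLC7A6, from 0.0111 ± 0.00209 to 0.0041 ± 0.000607 for SLC7A8, and from 0.00225 ± 0.000691 to 0.00079 ± 0.000545 for SLC7A7, which had at most 20 counts in a library (SD, n = 3). The fold of the SLC7A7 ratio was 0.351, and 0.212 without sgNF2-1 replicate 2. SLC3A2, the denominator, itself rose from 71.9 ± 5.29 FPKM in sgCtrl to 119 ± 4.98 in sgNF2-1 (SD, n = 3). SLC7A6 stood at 1.89 ± 0.0976 and 1.73 ± 0.185 FPKM (SD, n = 3), and neither it nor SLC7A7 passed the test of expression. Summed over the 6 light chains, the ratio was 0.789 ± 0.0885 against 0.94 ± 0.074 (SD, n = 3), again with overlap. In FPKM the balance between SLC7A5 and SLC7A11 turned over, since SLC7A5 stood at 0.576 ± 0.0913 of the SLC7A11 level in sgCtrl and at 1.38 ± 0.146 of it in sgNF2-1 (SD, n = 3). The crossing depends on the scaling by gene length. In CPM, SLC7A5 stayed below SLC7A11 in both groups, at 97.7 against 346 in sgCtrl and 320 against 473 in sgNF2-1. These ratios are descriptions of transcript levels, given with no test.

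**Figure D2:**
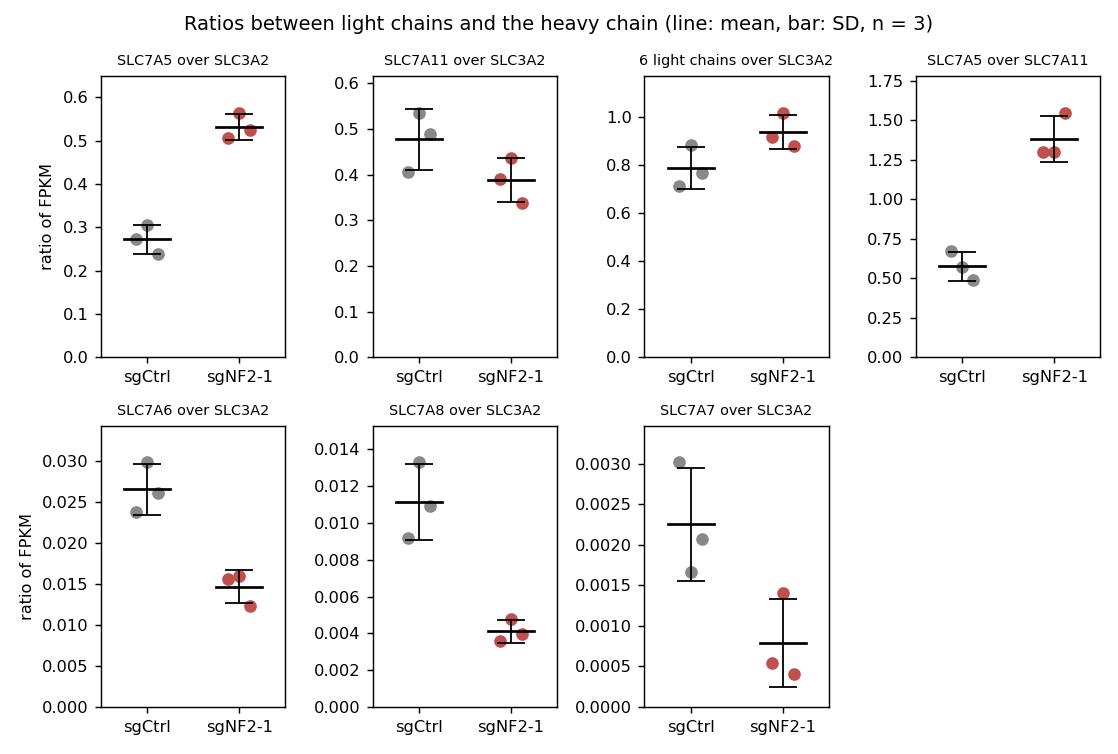
Ratios of FPKM in each library (points), with the mean (line) and SD (bar, n = 3) for sgCtrl and sgNF2-1. The SLC7A5 to SLC3A2 and SLC7A5 to SLC7A11 ratios are higher in all sgNF2-1 libraries and those of SLC7A6, SLC7A7 and SLC7A8 to SLC3A2 are lower in all of them, while SLC7A11 and the sum of 6 light chains against SLC3A2 overlap.

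Stretches around one start site each of SLC7A5 and SLC3A2 are shown because the pair forms a single exchanger and both rose. They are RefSeq sequences of GRCh38.p14, from 120 bases before the start to base 10 from it, in the direction of the gene. Capitals mark the core of the antioxidant response element, TGACNNNGC, the only one of 3 searched motifs found in the SLC7A5 window. This motif was in 13.35% of all 35116 promoter windows of 300 bases, on either strand, and in a window of 16.06% of 27305 genes. Of 19 tested transporter genes with a window, 6 held it.
SLC7A5: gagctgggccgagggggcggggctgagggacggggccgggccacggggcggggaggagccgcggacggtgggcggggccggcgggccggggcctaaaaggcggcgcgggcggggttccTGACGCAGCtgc
SLC3A2: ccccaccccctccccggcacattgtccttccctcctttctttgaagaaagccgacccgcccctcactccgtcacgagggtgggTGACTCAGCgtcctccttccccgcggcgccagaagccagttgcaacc
The SLC7A5 stretch is chr16:87869498-87869627 on the minus strand and the SLC3A2 stretch is chr11:62881579-62881708 on the plus strand. In SLC7A5 the match ran from base -2 to base 7, across the start site, and in SLC3A2 from base -37 to base -29. The same core was found in windows of SLC1A5, SLC7A1, SLC7A6 and SLC7A7 among the tested genes, of which SLC7A6 and SLC7A7 did not pass the test of expression.

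The SLC1 family holds the neutral exchangers SLC1A4 (ENSG00000115902, chr2:64988477-65023865), for alanine, serine, cysteine and threonine, and SLC1A5 (ENSG00000105281, chr19:46774883-46788594), for the same amino acids and glutamine. Both rose. SLC1A4 had 444, 441 and 472 counts in sgCtrl and 1163, 1165 and 1006 in sgNF2-1. Its mean went from 28.7 ± 2.17 to 70.7 ± 4.69 CPM (SD, n = 3), with no overlap, and its log2 fold change was 1.3 (SE 0.10, edgeR adjusted p = 1.9e-10).

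SLC1A5, the more abundant of the pair, had 3100, 2988 and 2792 counts in sgCtrl and 5174, 5115 and 4774 in sgNF2-1. The mean rose 1.71-fold, to 320 ± 22.8 from 188 ± 7.95 CPM (SD, n = 3), without overlap between the groups and with a log2 fold change of 0.77 (SE 0.08, edgeR adjusted p = 6.7e-08). In FPKM, SLC1A5 exceeded SLC1A4 by 13.7 ± 1.18 times in sgCtrl and by 9.43 ± 0.396 times in sgNF2-1 (SD, n = 3).

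The glutamate and aspartate carriers of the family, SLC1A1, SLC1A2 and SLC1A3, known from neurons, glia and epithelia, were not tested. SLC1A1 had 14, 5 and 3 counts in sgCtrl and 7, 4 and 1 in sgNF2-1, and SLC1A2 and SLC1A3 had at most 3 counts in any library.

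Windows of both SLC1 exchangers held the composite of a C/EBP and an ATF half-site, searched as TGATGNAA on both strands. Among the tested genes 5 had such a match and are shown because 4 of them were among the genes that rose, the exception being SLC38A1. Each line gives the match in capitals with up to 11 bases on each side, as RefSeq has it in GRCh38.p14, in the direction of the gene.
SLC1A4: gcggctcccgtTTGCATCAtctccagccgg
SLC1A5: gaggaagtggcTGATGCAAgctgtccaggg
SLC3A2: tgcaggactccTTACATCAgctcc
SLC7A1: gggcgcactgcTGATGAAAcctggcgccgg
SLC38A1: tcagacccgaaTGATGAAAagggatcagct
They lie at chr2:64989381-64989410 for SLC1A4, chr19:46784893-46784922 for SLC1A5, chr11:62881725-62881748 for SLC3A2, chr13:29595663-29595692 for SLC7A1 and chr12:46266502-46266531 for SLC38A1. SLC1A4 and SLC3A2 hold the motif on the strand opposite to the gene. Counted from the start as base 1, the matches began at -7 in SLC1A4, -97 in SLC1A5, 38 in SLC3A2, 8 in SLC7A1 and -4 in SLC38A1.

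The composite was found in 6 of 46 windows of the transporter genes (13.0%), the sixth in the untested SLC1A3, and in 3.62% of all 35116 windows. Counted per gene, 4.46% of 27305 genes had it in a window. Windows were listed for 25 of the 33 genes, several genes having more than 1 start, and for 19 of the 22 tested genes. Of the 7 higher genes with a window, 4 had a match, while SLC7A5, SLC6A9 and SLC43A1 had none, and none of the 3 lower genes with a window had one. The last motif, GGAATG, the site of TEAD factors that act downstream of merlin and the Hippo kinases, was in 14.03% of all windows. Counted per gene, 16.73% of 27305 genes had it, and so did 3 of the 19 tested transporter genes with a window, SLC1A5, SLC38A6 and SLC43A2. These matches are descriptions of the letters in the windows. Sites outside the windows were not searched, so a gene without a match here, such as SLC38A2 or SLC7A5, may hold one elsewhere. The counts among the higher and the lower genes therefore cannot show which genes lack the composite. No window was given for SLC1A2, SLC3A1, SLC6A6, SLC6A15, SLC7A2, SLC7A11, SLC38A3 and SLC43A3.

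The cationic amino acid carrier SLC7A1 (ENSG00000139514, chr13:29509410-29595688), which brings in arginine, lysine and ornithine without a heavy chain, had 2231, 2658 and 2144 counts in sgCtrl and 5280, 5219 and 3997 in sgNF2-1. All sgNF2-1 libraries were above all sgCtrl libraries. Its mean rose 2.07-fold, from 148 ± 11.8 to 306 ± 29.2 CPM (SD, n = 3), with a log2 fold change of 1.05 (SE 0.09, edgeR adjusted p = 1.4e-09). SLC7A2, the other cationic carrier, had 6, 3 and 2 counts in sgCtrl and 6, 21 and 3 in sgNF2-1 and was not tested.

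The SLC6 family couples transport to sodium and chloride, and its tested members split. SLC6A9 (ENSG00000196517, chr1:43991500-44031467), the glycine carrier, had 681, 715 and 690 counts in sgCtrl and 1403, 1428 and 1263 in sgNF2-1. The groups were apart, with means of 44.1 ± 1.22 and 87.0 ± 6.56 CPM (SD, n = 3) and a log2 fold change of 0.98 (SE 0.09, edgeR adjusted p = 6e-09). Other genes on the opposite strand overlap it, CCDC24 and AL139220.2, with mean counts of 16.8% and 12.6% of its own and log2 fold changes of -0.55 and -0.82, opposite in sign to that of SLC6A9.

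SLC6A6 (ENSG00000131389, chr3:14402576-14489349), the carrier of taurine and beta-alanine, had 2109, 2613 and 1970 counts in sgCtrl and 1432, 1267 and 1097 in sgNF2-1. Every sgNF2-1 library was below every sgCtrl library. Its mean fell from 141 ± 15.9 to 80.2 ± 2.74 CPM (SD, n = 3), with a log2 fold change of -0.81 (SE 0.09, edgeR adjusted p = 1e-07). GRIP2 overlaps 239 bases of it on the opposite strand, with a mean count of 7.2% of its own and a log2 fold change of -1.80. SLC6A15, a carrier of branched-chain amino acids and proline known from brain, had 8, 9 and 8 counts in sgCtrl and 12, 22 and 6 in sgNF2-1 and was not tested.

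**Figure D3:**
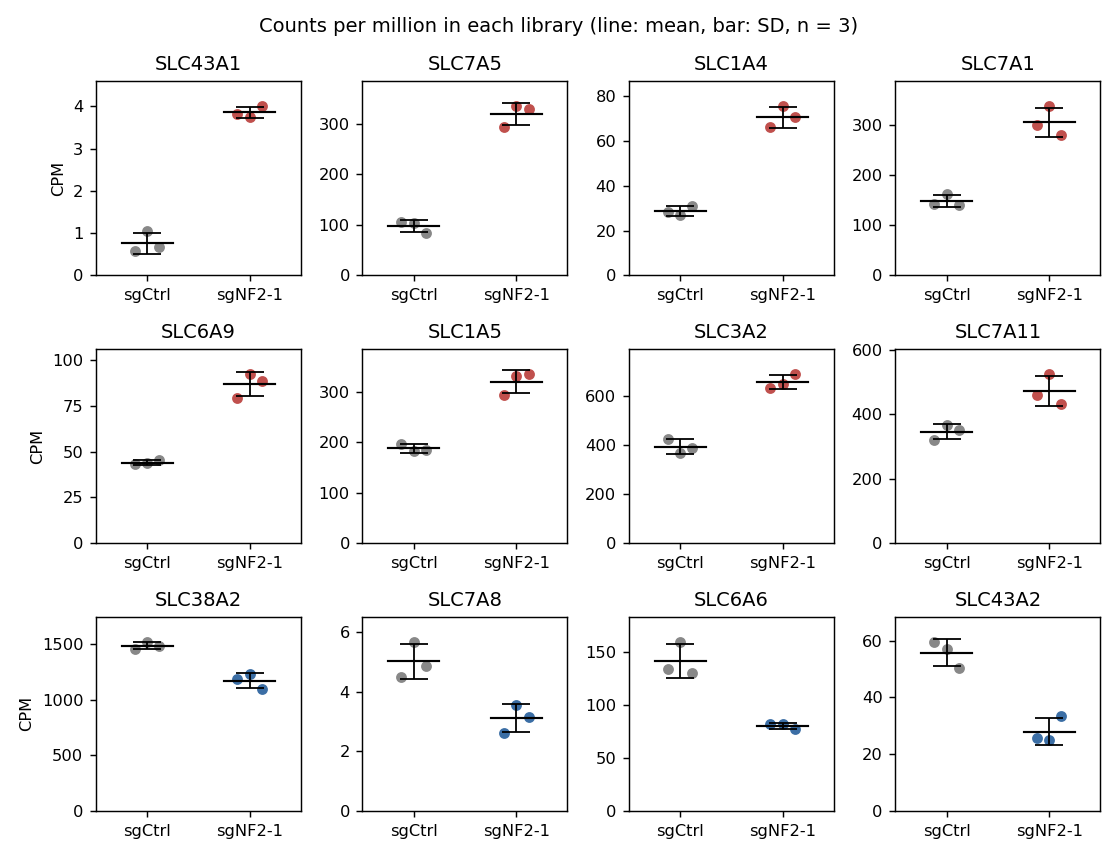
CPM in each library (points) for the 12 transporter genes that passed the test, with the mean (line) and SD (bar, n = 3) in sgCtrl and sgNF2-1 on axes that start at 0. In each of the 12 panels the 3 sgNF2-1 points lie wholly above or wholly below the 3 sgCtrl points, with SLC43A1 and SLC7A8 at a few CPM and SLC38A2 at 1490 and 1180 CPM on average.

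Among the SLC43 genes, SLC43A1 and SLC43A2 code for carriers of leucine and other large neutral amino acids that need no heavy chain and no exchange partner. SLC43A1 (ENSG00000149150, chr11:57484534-57515786) had 9, 17 and 10 counts in sgCtrl and 67, 58 and 57 in sgNF2-1. No library of one group came near the other, and the mean rose from 0.755 ± 0.247 to 3.86 ± 0.129 CPM (SD, n = 3). The log2 fold change of 2.33 (SE 0.32, edgeR adjusted p = 3.2e-06) was the highest of the 22 genes and ranked 26 among the 14179 tested genes, although with so few counts its interval ran from 1.67 to 2.99. SLC43A1 passed the filter on counts only through its sgNF2-1 libraries, the group where it was higher, so its place among the tested genes depends on that group. With a minimum of 10 counts in each library it was not tested, and 7 transporter genes were higher and 5 lower. Of all 12874 genes tested with that filter, 2397 were higher and 2328 were lower.

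SLC43A2 (ENSG00000167703, chr17:1569267-1628886) moved in the opposite direction. It had 938, 939 and 765 counts in sgCtrl and 453, 384 and 474 in sgNF2-1, without overlap. The mean fell from 55.7 ± 4.73 to 28 ± 4.62 CPM (SD, n = 3), with a log2 fold change of -1.0 (SE 0.11, edgeR adjusted p = 1.6e-07), the lowest of the 22 genes. In FPKM, SLC43A2 exceeded SLC43A1 by 26.2 ± 8.18 times in sgCtrl and by 2.41 ± 0.313 times in sgNF2-1 (SD, n = 3). SLC43A3, known as a purine nucleobase carrier, gave a log2 fold change of 0.15 (95% interval -0.03 to 0.33) and did not pass the test, although its sgNF2-1 libraries all lay above the sgCtrl libraries in CPM.

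The SLC38 family carries glutamine and other neutral amino acids, in most of its members together with sodium, and 6 of its 9 genes were tested. SLC38A2 (ENSG00000134294, chr12:46358189-46372867) was the most abundant of all 33 genes in both groups. It had 22962, 24912 and 22510 counts in sgCtrl and 21004, 19001 and 15678 in sgNF2-1. On the CPM scale the groups were apart, and the mean fell from 1490 ± 30.5 to 1180 ± 67.0 (SD, n = 3), with a log2 fold change of -0.34 (SE 0.08, edgeR adjusted p = 0.0028), short of the 0.5 limit.

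SLC38A1 (ENSG00000111371, chr12:46183063-46270017), its neighbour on chromosome 12, had 6617, 7573 and 7141 counts in sgCtrl and 9379, 7947 and 6519 in sgNF2-1. The groups overlapped, with means of 451 ± 27.0 and 502 ± 39.3 CPM (SD, n = 3) and a log2 fold change of 0.16 (SE 0.08, 95% interval -0.02 to 0.33, edgeR adjusted p = 0.16). Without sgNF2-1 replicate 3 its adjusted p was 0.043. The SLC38A2 to SLC38A1 ratio in FPKM was 5.01 ± 0.242 in sgCtrl and 3.56 ± 0.139 in sgNF2-1 (SD, n = 3), with no overlap.

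SLC38A9 (ENSG00000177058, chr5:55625845-55773194), which sits in the lysosomal membrane and senses arginine for the mTOR complex, had 129, 168 and 178 counts in sgCtrl and 215, 177 and 176 in sgNF2-1. The groups overlapped, with means of 10.0 ± 1.78 and 12 ± 0.479 CPM (SD, n = 3). The log2 fold change was 0.26 (SE 0.15, 95% interval -0.05 to 0.57, edgeR adjusted p = 0.19). SLC38A10 lay close to the threshold, with 1851, 1871 and 1619 counts in sgCtrl, 1618, 1495 and 1474 in sgNF2-1, and a log2 fold change of -0.21 (SE 0.08, edgeR adjusted p = 0.052, and 0.046 in DESeq2). SLC38A6 (-0.27, 95% interval -0.57 to 0.03) and SLC38A7 (-0.02, -0.25 to 0.20) did not pass the test. TRMT5, which overlaps SLC38A6 by 245 bases on the opposite strand, had a mean count of 109.31% of that of SLC38A6. SLC38A4 and SLC38A5 had at most 3 counts in a library and SLC38A3 had 0 in all 6, which allows up to 3 counts in each.

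The carriers of the SLC36 family, found on lysosomes and the plasma membrane, did not pass the test. SLC36A1 gave a log2 fold change of 0.18 (95% interval -0.14 to 0.50) and SLC36A4 one of -0.24 (-0.52 to 0.05), the latter with its sgNF2-1 libraries all below the sgCtrl libraries in CPM. Over both groups, 11 of the 33 genes could not be tested, and the highest count of any of them in any library was 22. These were expressed, if at all, below the depth at which a difference could be seen.

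On the FPKM scale, 11 of the 33 genes had a mean of at least 10 over the 6 libraries, 8 lay between 1 and 10, 3 between 0.1 and 1, and 11 below 0.1. In sgCtrl the order from the top was SLC38A2 at 213 ± 4.59, SLC3A2 at 71.9 ± 5.29, SLC1A5 at 53.4 ± 2.25, SLC38A1 at 42.6 ± 2.55, SLC7A11 at 34.0 ± 2.35, SLC7A5 at 19.5 ± 2.31 and SLC7A1 at 18.3 ± 1.49 FPKM (SD, n = 3). SLC7A5 and SLC7A1 did not differ beyond their spread there. In sgNF2-1 the order was SLC38A2 at 167 ± 9.88, SLC3A2 at 119 ± 4.98, SLC1A5 at 90.3 ± 6.48, SLC7A5 at 63.3 ± 4.44, SLC38A1 at 47.1 ± 3.73, SLC7A11 at 46.1 ± 4.71 and SLC7A1 at 37.4 ± 3.67 FPKM (SD, n = 3), with SLC38A1 and SLC7A11 within their spread of each other. SLC7A5 thus passed from the sixth to the fourth place.

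**Figure D4:**
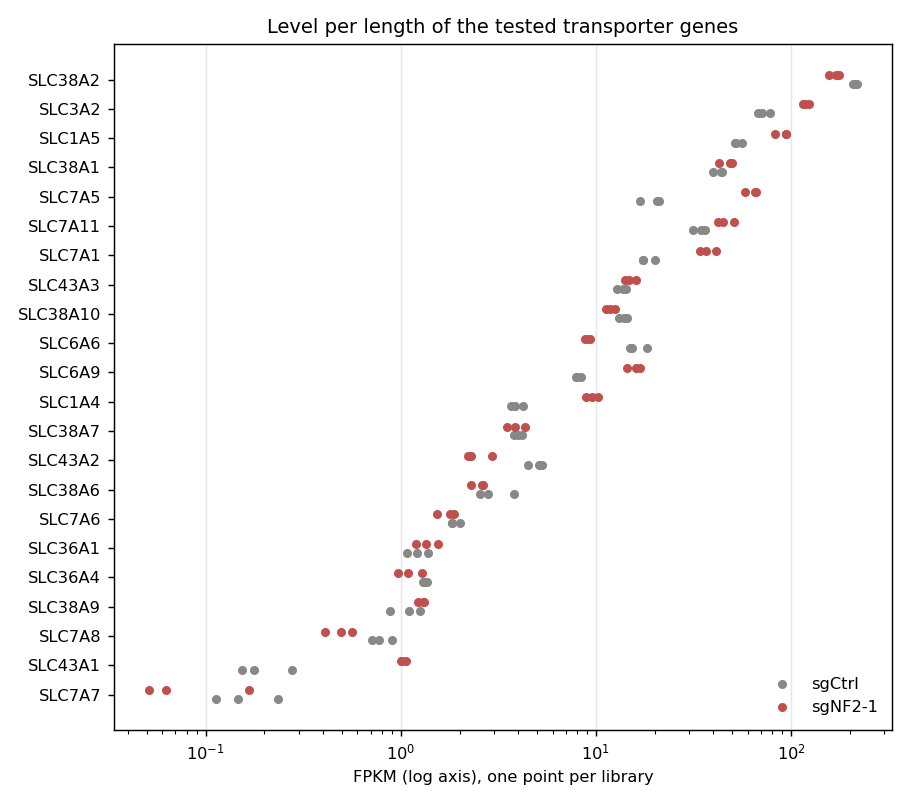
FPKM in each library (log axis) of the 22 tested transporter genes, ordered by their mean over the 6 libraries, with sgCtrl in grey and sgNF2-1 in red. SLC38A2 is the highest gene in both groups, SLC7A5 shifts from 19.5 to 63.3 FPKM, and SLC43A1 from 0.203 to 1.03 FPKM.

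The summed FPKM of the 33 genes was 527, 535 and 521 in sgCtrl and 630, 676 and 638 in sgNF2-1. The sum was thus 1.23-fold higher in sgNF2-1, with no overlap. Without SLC38A2 it was 1.53-fold higher (314 ± 4.95 against 481 ± 19.9, SD, n = 3). SLC38A2 is the most abundant gene and was itself lower in sgNF2-1, so leaving it out necessarily raised the fold. SLC38A2 made up 40.4% ± 0.631 of the sum in sgCtrl and 25.8% ± 1.21 in sgNF2-1, while the share of SLC7A5 went from 3.69% ± 0.406 to 9.77% ± 0.502 and that of SLC3A2 from 13.6% ± 1.08 to 18.4% ± 1.07 (SD, n = 3).

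Genes that work beside the transporters were counted in lists. Of 9 transcription factors and kinases listed here under the amino acid response, all tested, 7 were higher, beside 17.7% of all tested genes. The list also holds NFE2L2, and its genes are not specific to a shortage of amino acids. This list was drawn up with results of these libraries known, so the count is not independent evidence of its direction. ATF3 had 172, 174 and 169 counts in sgCtrl and 948, 911 and 730 in sgNF2-1 (log2 fold change 2.33, SE 0.11), and TRIB3, a pseudokinase induced by ATF4, gave 1.88 (SE 0.09). DDIT3 at 0.95, CEBPG at 0.93 and ATF4 itself at 0.56 followed, each with an SE of 0.09 or 0.10. ATF4 had 7345, 7222 and 7984 counts in sgCtrl and 12431, 10353 and 10544 in sgNF2-1, groups that did not overlap. The remaining higher genes were NFE2L2 at 0.31 and CEBPB at 0.30.

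The path from cystine to glutathione, which SLC7A11 feeds, had 11 of 13 genes tested, with 4 higher and 3 lower, beside 17.7% and 16.6% of all tested genes, and a median log2 fold change of -0.08. CHAC1, an enzyme that breaks glutathione down, had 247, 229 and 225 counts in sgCtrl and 1013, 996 and 888 in sgNF2-1 (log2 fold change 2.05, SE 0.11, edgeR adjusted p = 2.1e-13). Its relative CHAC2 gave 0.96 (SE 0.21) and CBS, which starts the conversion of homocysteine to cysteine, 1.12 (SE 0.12). GCLM, the regulatory subunit of the first enzyme of glutathione synthesis, was lower (log2 fold change -0.56, SE 0.10, edgeR adjusted p = 7e-05). Smaller changes that passed the test were those of GSS (0.43), which completes glutathione, and of the reductases TXNRD1 (-0.40) and GSR (-0.25).

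In the list of lysosomal amino acid sensing, 16 genes were tested, 2 were higher and 2 were lower, no larger a share in either direction than the 17.7% and 16.6% of all tested genes, and the median log2 fold change was -0.06. SESN2, a leucine sensor that holds back the mTOR complex, had 482, 566 and 473 counts in sgCtrl and 2109, 1902 and 1771 in sgNF2-1 (log2 fold change 1.93, SE 0.09, edgeR adjusted p = 3e-14). FNIP2, a partner of folliculin, was lower at -0.81 (SE 0.22, edgeR adjusted p = 0.0066). The other calls, LAMTOR1 at 0.28 and LAMTOR5 at -0.28, belong to the complex that anchors the sensing machinery to the lysosome.

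Of the mitochondrial amino acid carriers 12 were tested, 2 were higher and 3 were lower, beside 17.7% and 16.6% of all tested genes, so that the share of higher genes was close to the background. SLC25A15, which exchanges ornithine for citrulline, gave a log2 fold change of 0.66 (SE 0.17) and SLC25A26, the carrier of S-adenosylmethionine, 0.53 (SE 0.12), while SLC25A29, a carrier of basic amino acids, gave -0.71 (SE 0.12), and SLC25A13 and SLC25A44 were lower at -0.29 and -0.27. Of 8 tested genes among the other amino acid carriers of the plasma membrane, vesicles and lysosomes, 2 were higher, the cystine exporter CTNS at 0.27 and MFSD12 at 0.26, and 1 was lower, beside the same shares of all tested genes. The lower one was SLC17A5, the lysosomal sialic acid exporter that also loads acidic amino acids into vesicles, with 831, 918 and 920 counts in sgCtrl and 576, 463 and 414 in sgNF2-1 (log2 fold change -0.88, SE 0.10, edgeR adjusted p = 1.4e-07).

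**Figure D5:**
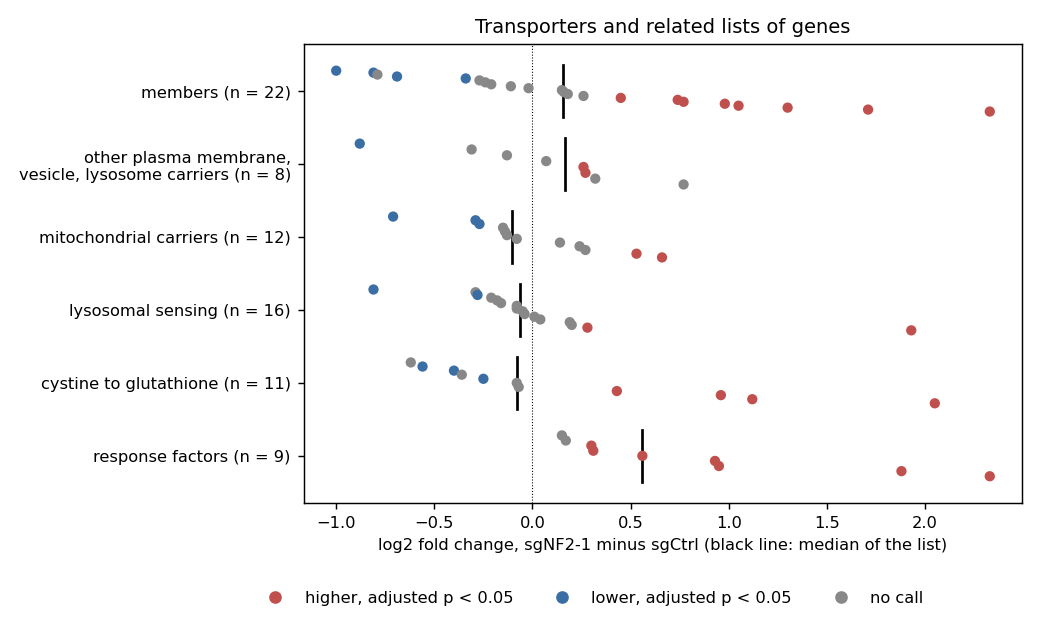
Log2 fold change (sgNF2-1 minus sgCtrl, x axis) of each tested gene in the transporter set and in 5 related lists, coloured by the call at an adjusted p under 0.05, with the median of each list as a black line. The medians run from -0.11 for the mitochondrial carriers to 0.56 for the response factors, beside 0.15 for the transporters.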

How the data were processed

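RNA of 3 sgCtrl and 3 sgNF2-1 libraries of H2452 cells was made into libraries with a NEBNext Ultra RNA kit and sequenced as paired ends. The submitters' processing notes name HISAT2, StringTie 1.3.3b, featureCounts 1.5.0-p3 and the build hg38. The authors deposited 1 table of raw counts per gene and 1 of FPKM, which are scaled by gene length and depth. All 33 transporter genes had the same identifiers and coordinates in GENCODE 29. The strand setting of the counting is not given in the sources used here.

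Counts were filtered with filterByExpr (minimum count 10, minimum total 15), scaled by TMM and fitted over all genes with edgeR 4.0.16 (quasi-likelihood test, R 4.3.3), with Benjamini-Hochberg adjustment over the 14179 tested genes. CPM were computed from the counts with the TMM scaling. FPKM were tested with limma 3.58.1 as log2(FPKM + 1) over genes with a mean of at least 0.5. DESeq2 1.42.0 was an alternative. The steps were tested on simulated data.

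Full values are given for transporter genes whose adjusted p was under 0.05 and whose fold change passed 0.5 on the log2 scale, for the 5 with the highest mean FPKM, and for SLC3A2 and SLC38A9. Of each related list, at most 5 genes past those limits are named. SLC7A11, SLC38A10 and the list genes with smaller changes are named outside this rule, after their values were seen. The members, lists and tests were chosen with earlier results of these data known. Matches to motifs were searched in RefSeq windows from 250 bases before to 50 after each start. Some items are not reported here.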

Additional observations from a re-analysis of the deposited data

How the results depend on the processing

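Between 7 and 9 transporter genes were higher and between 3 and 5 were lower in edgeR and DESeq2 under every alternative run (DESeq2, its size factors in edgeR, scaling by library totals, dropping the filter, a minimum of 10 counts in each library, the replicate block, each library left out in turn, and both rules with a log2 limit of 0.5). Under the alternatives without a log2 limit, 2016 to 2698 of all tested genes were higher and 1880 to 2529 lower. The number of genes tested differed between these alternatives. With library totals, 46.9% of the calls over all genes were higher, beside 51.7% in the main fit. Of 262 recalculated fold changes of the tested transporter genes, 250 kept their direction and their side of the threshold. SLC38A7, with no call, ran from -0.1 to 0.05 with 1 library left out and changed sign to 0.01 without sgCtrl replicate 2 and to 0.05 without sgNF2-1 replicate 1. SLC38A10 passed the threshold in 7 of 12 alternatives. On FPKM, 7 to 8 genes were higher and 2 to 3 lower with 1 library left out. The 2 came without sgCtrl replicate 2, where the lower count moved from 4, and the cause was not tested. In the main test on FPKM, 13.3% of all genes tested on that scale were higher and 13.4% were lower. These shares were not recounted with libraries left out. The fold of the SLC7A5 to SLC3A2 ratio ran from 1.85 to 2.09 with 1 library left out, that of SLC7A11 from 0.757 to 0.867, that of SLC7A6 from 0.525 to 0.597, that of SLC7A7 from 0.212 to 0.435, that of SLC7A8 from 0.338 to 0.408 and that of the 6 light chains from 1.14 to 1.27.

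Libraries of the 2 groups with the same number deviated together with correlations of -0.04, 0.07 and 0.06, and those with different numbers with -0.13 to 0.08. With 3 libraries a group these values cannot show whether libraries of the same number were handled together. With the replicate block 8 transporter genes were higher and 5 lower, as were 2698 and 2501 of all tested genes. Without the block 2515 and 2351 of all tested genes were higher and lower. Depth limits the 11 untested genes and leaves wide intervals for SLC43A1, SLC7A7 and SLC7A8. Counting by library totals moved the median of all genes by under 0.1 on the log2 scale.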
